A study of Mus musculus with 8 samples.

Results

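Transcript levels were compared between heart fibroblasts labelled as Siah knockout and wild-type heart fibroblasts after 6 h at 1% O2, across the autosomal genes of the array. A gene entered if it lay on an autosome of the RefSeq gene table, and where several spots carried 1 symbol, the brightest on average was taken. This gave 23373 autosomal genes of 24306 named genes, and 16417 of them passed the filter on dim genes, a mean log2 intensity of 3.39.

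The study used primary fibroblasts freshly isolated from mouse hearts and grown in DMEM with 10% FBS. It had 4 groups of 2 samples, which the design text calls biological replicates: knockout-labelled cells in hypoxia, wild-type cells in hypoxia, and the same genotypes left untreated in normoxia. Total RNA was labelled with Cy3 and read on a 1-colour array. The labels do not say which Siah gene was altered or how, nor the strain, age or number of animals, nor whether samples share a culture, so p-values measure only the spread between these samples.

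Siah proteins are RING ubiquitin ligases. Siah2 is known to mark the prolyl hydroxylases of the Egln family for degradation, and these hydroxylases, when oxygen is plentiful, tag HIF, the hypoxia-inducible transcription factor, for removal. HIF in turn drives genes of glucose uptake, glycolysis and oxygen supply. Cardiac fibroblasts make the collagen and matrix of the heart, and cultures made freshly from heart tissue can carry resident macrophages and other cell types.

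Promoter sequences are shown for members of the groups described below, to give the letters that surround the HIF and PU.1 motifs searched there. They are the 250 bases before the gene start in the RefSeq table for GRCm38.p6, 5′ to 3′ on the strand of the gene. Capitals mark ACGTG or GCGTG, the core of a hypoxia response element, on either strand in Pfkfb4 (chr9:108991652-108991901, plus strand), a regulator of glycolytic flux, in Car9 (chr4:43506776-43507025, plus strand), a carbonic anhydrase, and in Pdk1 (chr2:71872974-71873223, plus strand), which restrains pyruvate entry into mitochondria. In C1qb (chr4:136886201-136886450, minus strand), a chain of complement C1q made by macrophages, capitals mark GAGGAA, a core bound by the myeloid factor PU.1. The macrophage markers Folr2 and Cx3cr1, described below, held 0 such matches in this window and are not printed.
Pfkfb4: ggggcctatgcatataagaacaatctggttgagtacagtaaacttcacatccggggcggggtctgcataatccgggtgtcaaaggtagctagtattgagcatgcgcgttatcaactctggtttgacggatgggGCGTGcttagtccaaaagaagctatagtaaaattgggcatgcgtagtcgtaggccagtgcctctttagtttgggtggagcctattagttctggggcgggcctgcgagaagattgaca
Car9: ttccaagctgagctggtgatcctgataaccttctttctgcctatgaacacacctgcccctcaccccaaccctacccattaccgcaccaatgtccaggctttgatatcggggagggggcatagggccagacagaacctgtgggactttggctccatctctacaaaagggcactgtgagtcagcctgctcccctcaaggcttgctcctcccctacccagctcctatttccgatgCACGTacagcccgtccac
Pdk1: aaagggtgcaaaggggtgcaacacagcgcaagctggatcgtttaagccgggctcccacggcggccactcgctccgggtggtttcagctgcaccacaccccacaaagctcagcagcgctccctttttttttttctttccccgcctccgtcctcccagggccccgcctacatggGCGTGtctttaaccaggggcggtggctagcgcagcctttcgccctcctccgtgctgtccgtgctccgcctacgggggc
C1qb: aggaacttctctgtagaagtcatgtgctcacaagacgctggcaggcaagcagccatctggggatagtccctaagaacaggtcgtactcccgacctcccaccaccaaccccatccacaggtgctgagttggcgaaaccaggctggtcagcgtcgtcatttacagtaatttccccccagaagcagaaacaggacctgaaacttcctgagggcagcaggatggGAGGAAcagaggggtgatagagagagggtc
Of the 38 measured HIF target genes, 29 matched the promoter table, and 26 of these (89.7%) held ACGTG or GCGTG on either strand, against 38.6% of all 27025 genes in the table. Of the 18 measured macrophage and leukocyte markers, 13 matched, and 9 (69.2%) held GAGGAA on either strand, against 23.1% of all genes. A match describes the letters in this window and shows no binding.

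The label was checked first on the Siah genes. Siah2 (chromosome 3) gave log2 intensities of 9.29 and 8.87 in knockout-labelled hypoxia, against 9.55 and 8.96 in wild-type hypoxia, so the groups overlapped (log2 difference -0.18, SE 0.35). In normoxia the knockout-labelled samples lay lower, at 6.60 and 7.39, against 9.04 and 8.71 in wild type (-1.88, SE 0.35). The difference between the oxygen conditions was 1.70 and did not pass limma's test over all genes (adjusted p = 1.00). The position of the probe relative to any deletion was not used here, so Siah2 does not settle the label. Siah1a (chromosome 8) gave 9.14 and 9.04 in knockout-labelled hypoxia, against 8.78 and 8.90 in wild type, and Siah3 (chromosome 14) gave 4.86 and 5.49, against 6.60 and 4.30. The groups were apart for Siah1a, with a log2 difference of 0.25, and overlapped for Siah3. Siah1b, on the X chromosome, gave 8.17 and 8.41, against 8.06 and 8.24, and overlapped as well.

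Of the 10 genes that flank Siah2 in the gene table, 7 were tested and 1 had an unadjusted p under 0.05. Over all autosomal genes 6.23% had such a p in either direction. This was Erich6, its direct neighbour, with 6.36 and 7.08 in knockout-labelled hypoxia, against 3.26 and 4.94 in wild type (log2 difference 2.62, SE 0.56, limma adjusted p = 0.443). It stood apart in normoxia as well, with a log2 difference of 2.71. Of the 10 genes that flank Siah1a, 8 were tested and 0 had an unadjusted p under 0.05.

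The genotype labels also differed in a sex-linked transcript. Eif2s3y, a Y-chromosome gene, gave 3.49 and 3.39 in knockout-labelled hypoxia, against 8.98 and 8.84 in wild type (log2 difference -5.47), and was the only gene of any chromosome called in hypoxia by limma with Benjamini-Hochberg adjustment at 0.05 (adjusted p = 0.0040). Xist, which is transcribed from the inactive X chromosome, gave 5.32 and 5.37, against 3.30 and 3.54. The sex of the source cells and the genotype label therefore cannot be told apart in any autosomal difference given here.

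No autosomal gene was called in hypoxia: the smallest adjusted p in limma was 0.184. At an unadjusted p under 0.05 there were 1022 of 16417 autosomal genes (6.23%), against 821 expected if no gene differed, with 402 higher (2.45%) and 620 lower (3.78%) in knockout-labelled cells. The median size of the difference between a knockout-labelled and a wild-type sample was a log2 of 0.308, 0.275, 0.260 and 0.370 in the 4 possible pairs, against 0.333 between the 2 knockout-labelled samples and 0.325 between the 2 wild-type samples. Pairs across genotypes thus lay on both sides of the pairs within a genotype. With 2 samples against 2, an exact permutation test cannot go below a two-sided p of 0.333, so calls rest on the shared spread of the fit. In simulated data with this spread, the fit recovered 12% of genes changed by a log2 of 1 and 46% of those changed by a log2 of 2, so a count of 0 sets no tight bound on differences of this size.

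Samples of the groups were wholly apart, with the knockout-labelled values higher, for 2678 genes (16.3%), and lower for 2576 (15.7%). Of these, 217 lay at least a log2 of 1 higher and 475 at least a log2 of 1 lower. The members named next are the 14 in each direction with the smallest p among those whose brighter group had a mean of 6 or more, leaving out clone and model names. Since the values in hypoxia chose them, those values are a description.

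Among the 14 higher genes, Wdfy1, an endosomal adaptor of Toll-like receptor signalling, stood furthest out. It gave 11.07 and 11.67 in knockout-labelled cells, against 8.42 and 8.28 in wild type (log2 difference 3.02, SE 0.41, an 8.11-fold difference, adjusted p = 0.301 in limma). The brightest spot and the next brightest gave 3.02 and 3.14, but the remaining spots gave -0.45 and -0.09, so the spots disagreed. Ptprz1, a receptor-type phosphatase of neural and glial cells, gave 7.48 and 7.56, against 5.93 and 5.96 (1.58, SE 0.22). The samples of each group lay close together for this gene.

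Several of the higher genes are known as regulators or markers of particular lineages. Scx, the tendon factor scleraxis, gave 7.70 and 7.96 in knockout-labelled cells, against 6.50 and 6.24 in wild type. Six2, a homeobox gene of kidney progenitors, averaged 9.01 ± 0.01, against 7.80 ± 0.09 (SD, n = 2 each). The mesothelial uroplakin Upk3b gave 9.62 and 9.71, against 8.56 and 8.41. These groups did not overlap, and the log2 differences were 1.46, 1.21 and 1.18. Prdm6, a repressor of smooth muscle genes, gave 6.61 and 6.83, against 5.52 and 5.45, and Plvap, which forms endothelial diaphragms, gave 6.97 and 7.18, against 5.73 and 6.07. The other 7 were Tinagl1, Slc24a5, Myh1, Nrn1, Rrp1, Myct1 and Gfra2, with log2 differences of 1.01 (Rrp1) to 2.09 (Myh1). Nrn1, neuritin, gave 6.34 and 6.20, against 4.06 and 4.74, and Gfra2, a receptor for neurturin, gave 6.87 and 6.54, against 4.97 and 5.57.

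Among the 14 lower genes, Folr2, the folate receptor beta of resident macrophages, gave 7.55 and 7.24 in knockout-labelled cells, against 9.55 and 9.62 in wild type (log2 difference -2.19, SE 0.19). Hp, haptoglobin, which binds free haemoglobin, gave 7.38 and 7.73, against 10.10 and 10.18 (-2.59, SE 0.25). Both had the smallest adjusted p of any autosomal gene, 0.184. Mylk, myosin light chain kinase, gave 9.11 and 9.36, against 10.88 and 10.91 (-1.66), and its other spots gave -1.97, -0.70, -0.50 and -0.21, the brightest of these -1.97. Itga11, a collagen-binding integrin of fibroblasts, gave 11.64 and 11.87, against 13.33 and 13.39 (-1.60).

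The lower genes also held genes of matrix and patterning. Mfap2, a component of elastic microfibrils, gave 4.91 and 5.80 in knockout-labelled cells, against 7.81 and 8.03 in wild type (log2 difference -2.57). Grem1, a secreted BMP antagonist, gave 2.66 and 4.24, against 7.18 and 7.10 (-3.69). The homeobox gene Hoxc6 gave 3.15 and 3.24, against 5.44 and 6.73 (-2.89). The homeobox gene Gsc gave 3.68 and 3.10, against 5.69 and 6.41 (-2.66). The knockout-labelled mean of Hoxc6, 3.19, lay under the filter level of 3.39, and single samples of Grem1 and Gsc did too, so the sizes of these differences are not well resolved at the dim end.

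Of the remaining genes, Pla2g7, a secreted phospholipase made by macrophages, gave 6.36 and 6.24 in knockout-labelled cells, against 8.28 and 8.74 in wild type, and its other spots also lay lower (-1.55 and -1.22). Fcgr2b, an inhibitory Fc receptor, gave 6.36 and 5.58, against 8.02 and 8.82. Cd36, a fatty acid receptor, gave 5.64 and 5.57, against 6.94 and 6.77. These log2 differences were -2.21, -2.45 and -1.24. Zmynd15, Rab3b and Slc37a2 differed by -1.52, -1.67 and -1.34, and their groups did not overlap. Averaging all spots of a gene in place of the brightest moved the log2 difference of 8 of the 28 named genes by over 1.5 times, to 0.56 for Ptprz1, 0.57 for Tinagl1, 0.60 for Gfra2, 1.40 for Wdfy1, -1.01 for Mylk, -1.05 for Itga11, -1.54 for Mfap2 and -1.61 for Hoxc6. The other spots of Ptprz1, Tinagl1 and Gfra2 lay under the filter level. Over all 14 lower genes the adjusted p in limma ran from 0.184 to 0.372, and over the 14 higher genes from 0.301 to 0.443.

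**Figure D1:**
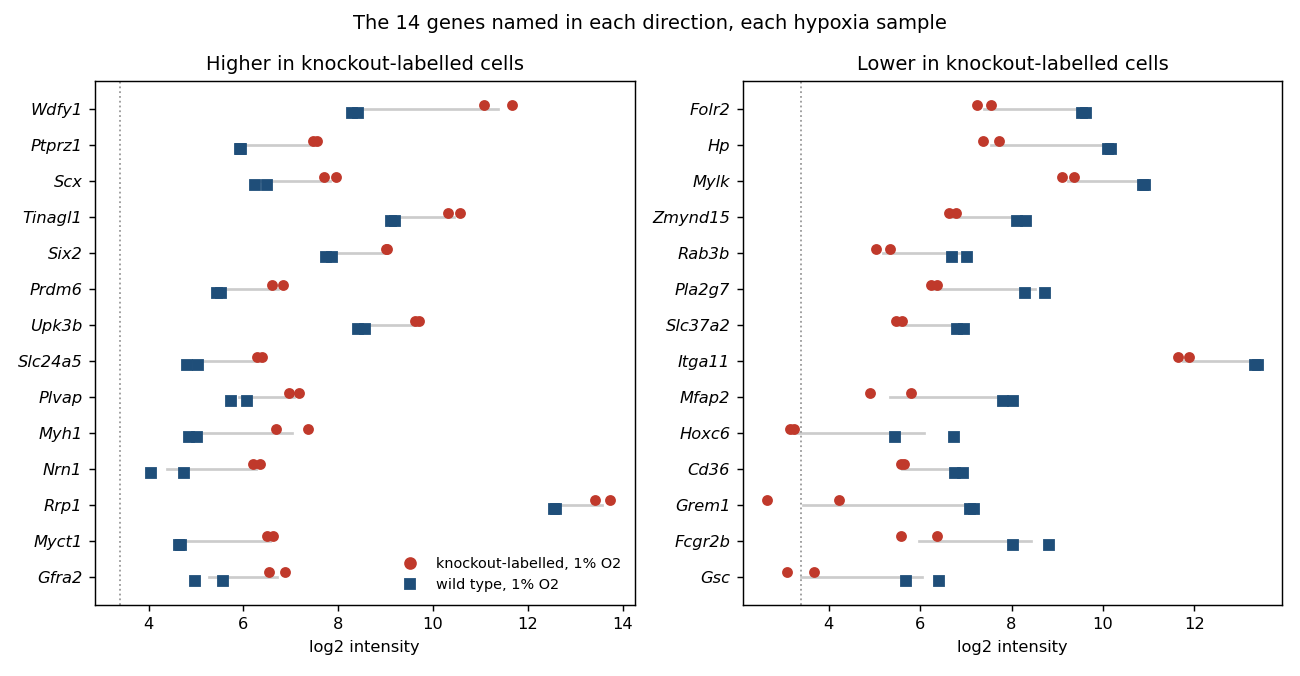
Log2 intensity (horizontal axis) of the 14 higher and 14 lower genes in each hypoxia sample; circles are knockout-labelled samples, squares wild-type samples, grey lines join the group means, and the dotted line is the filter level of 3.39. In every gene shown the samples of the genotypes lie wholly apart, as the rule that chose them required, and Hoxc6, Grem1 and Gsc reach the dotted line in knockout-labelled cells.

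The normoxia samples were read next. They do not enter the hypoxia difference, but the spread of the fit is pooled over all 4 groups, so a small spread in normoxia helped to choose these genes, and their normoxia p-values and separation are a description, not independent support. All 14 higher and all 14 lower genes had the same sign there (54% of all autosomal genes lay higher and 46% lower in normoxia), with groups that did not overlap and an unadjusted p under 0.05. Over all autosomal genes, 16.6% stood apart in normoxia as higher and 15% as lower, and 2.8% and 3.65% had such a p. Folr2 gave 7.42 and 7.23 in knockout-labelled normoxia, against 9.65 and 9.49 in wild type, and Wdfy1 gave 11.16 and 11.90, against 9.16 and 8.24. For 0 of the 16417 autosomal genes was the adjusted p in limma under 0.05 in normoxia, and 1060 had an unadjusted p under 0.05 (6.46%). Same-numbered samples of 1 genotype deviated together across genes (r = 0.34 in knockout-labelled and 0.31 in wild-type cells, over 17011 genes), so the normoxia samples may share cultures with the hypoxia samples and are not shown to be independent of them.

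A difference particular to hypoxia needs the test of the difference between oxygen conditions. It gave 0 called genes, a smallest adjusted p of 1.00 in limma and 400 genes at an unadjusted p under 0.05 (2.44%); positive differences made up 1.17% of all genes and negative ones 1.27%. Among the 28 named genes 2 had such a p. Cd36 lay further below wild type in normoxia (log2 difference -1.98) than in hypoxia (-1.24), and Ptprz1 lay further above it in normoxia (2.34) than in hypoxia (1.58). Of the 1022 genes with an unadjusted p under 0.05 in hypoxia, 825 (80.7%) had the same sign in normoxia, against 67.0% of all autosomal genes. Across genes, which are not independent replicates, the differences in hypoxia and normoxia correlated with r = 0.46. The test of the difference took samples of the 2 oxygen conditions as independent, although same-numbered samples of 1 genotype deviated together. Its count of 0 called genes therefore does not show that the genotype difference is the same in both conditions.

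**Figure D2:**
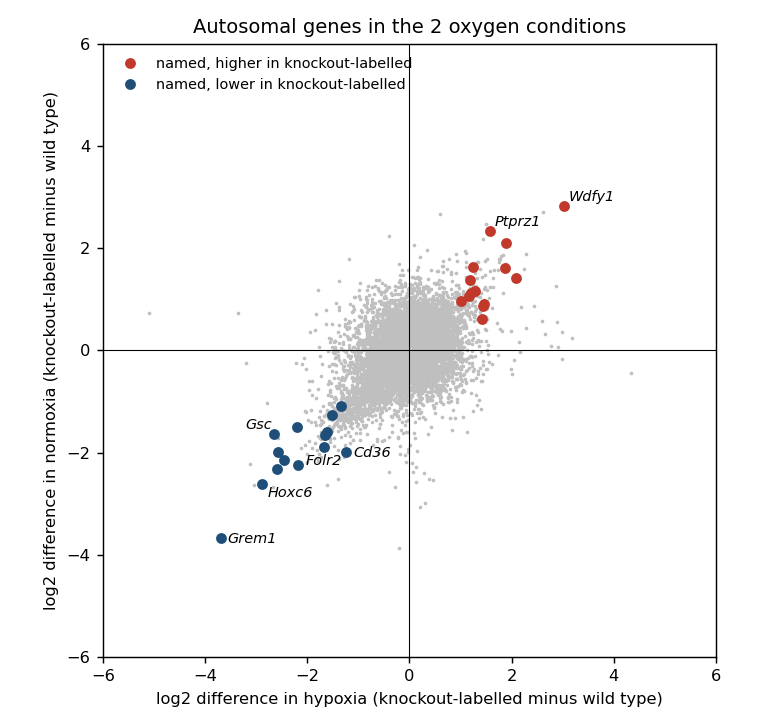
Log2 difference, knockout-labelled minus wild type, in hypoxia (horizontal axis) and in normoxia (vertical axis) for the autosomal genes tested (grey), with the 14 named higher genes in red and the 14 named lower genes in blue. The named genes lie in the upper right and lower left, with Wdfy1 at 3.02 and 2.83 and Grem1 at -3.69 and -3.67.

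The oxygen-sensing genes differed little. Of the 17 measured, 5 lay higher and 12 lower (52.5% and 47.5% of all autosomal genes), 0 had an unadjusted p under 0.05, and the median log2 difference was -0.08, against 0.02 over all autosomal genes. Egln3, a prolyl hydroxylase that is itself a HIF target, gave 8.36 and 8.81 in knockout-labelled hypoxia, against 9.68 and 9.56 in wild type (-1.04, SE 0.58). Vhl, which recognises hydroxylated HIF, gave 10.27 and 10.13, against 10.38 and 10.89. Cul2, the scaffold of the Vhl ligase, gave 9.34 and 9.11, against 8.63 and 8.97. The groups did not overlap for any of these genes. Among 15 measured protein partners and substrates of Siah ligases, 11 lay higher and 4 lower; Numb, an inhibitor of Notch signalling, gave 4.63 and 5.03, against 5.54 and 5.68 (-0.78), the only member with an unadjusted p under 0.05 (6.67%, against 3.78% of all autosomal genes). Since this readout is RNA, it holds no information on the amount of the proteins that Siah ligases degrade.

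HIF target genes lay lower in knockout-labelled hypoxia as a group, with 33 of 38 lower, 5 higher and a median log2 difference of -0.37, against 47.5% of all autosomal genes lower and a median of 0.02. The groups stood apart for 13 lower members (34.2%, against 15.7% of all autosomal genes). At an unadjusted p under 0.05 there were 2 lower members (5.26%, against 3.78%) and 1 higher member (2.63%, against 2.45%), which is near the shares over all genes. Pfkfb4, whose promoter is printed above, gave 7.84 and 7.83, against 8.58 and 8.94 (-0.92, SE 0.30). Ndufa4l2, a mitochondrial protein induced by HIF, gave 9.15 and 6.28, against 9.53 and 11.23 (-2.66, SE 0.97), with a wide gap between the knockout-labelled samples. Car9 gave 4.61 and 3.94, against 4.88 and 5.45, and Pdk1 gave 10.39 and 9.45, against 10.46 and 11.30. The other spot of Car9 gave a log2 difference of 0.40, so the spots of Car9 disagreed. The higher member was Nrn1. In normoxia the median of the list was -0.07.

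The shift of the HIF list varied with which samples were set against each other. Knockout-labelled sample 1 minus wild-type sample 1 gave a median of 0.01 with 19 of 38 members lower, and knockout-labelled sample 2 minus wild-type sample 2 gave -0.75 with 33 lower. Between these lay knockout-labelled sample 1 minus wild-type sample 2, at -0.52 with 29 lower. Knockout-labelled sample 2 minus wild-type sample 1 gave -0.24, also with 29 lower. Without knockout-labelled sample 2 the median of the list was -0.19, and without wild-type sample 2 it was -0.12. Over all autosomal genes the medians of the 4 sample pairs ran from -0.01 to 0.03.

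Genes of glycolysis and glucose uptake, which share members with the HIF list, were lower in 23 of 25, with a median log2 difference of -0.28. Pygl, liver glycogen phosphorylase, gave 8.84 and 8.29 in knockout-labelled hypoxia, against 9.79 and 10.68 in wild type (-1.67, SE 0.38). Gys1, glycogen synthase, gave 10.85 and 10.65, against 11.47 and 12.24 (-1.11). Aldoc, an aldolase, gave 8.80 and 7.85, against 9.38 and 9.77, and the lactate exporter Slc16a3 gave 13.09 and 12.94, against 13.87 and 13.89. These 4 of 25 (16%, against 3.78% of all autosomal genes) lay lower at an unadjusted p under 0.05, and their groups did not overlap. The median was -0.01 for the pair of samples numbered 1 and -0.45 for the pair numbered 2, and in normoxia it was -0.04. Knockout-labelled sample 1 minus wild-type sample 2 gave -0.28, and knockout-labelled sample 2 minus wild-type sample 1 gave -0.20. The respiratory chain stood near 0, with 12 of 23 members higher and 11 lower and a median of 0.01.

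**Figure D3:**
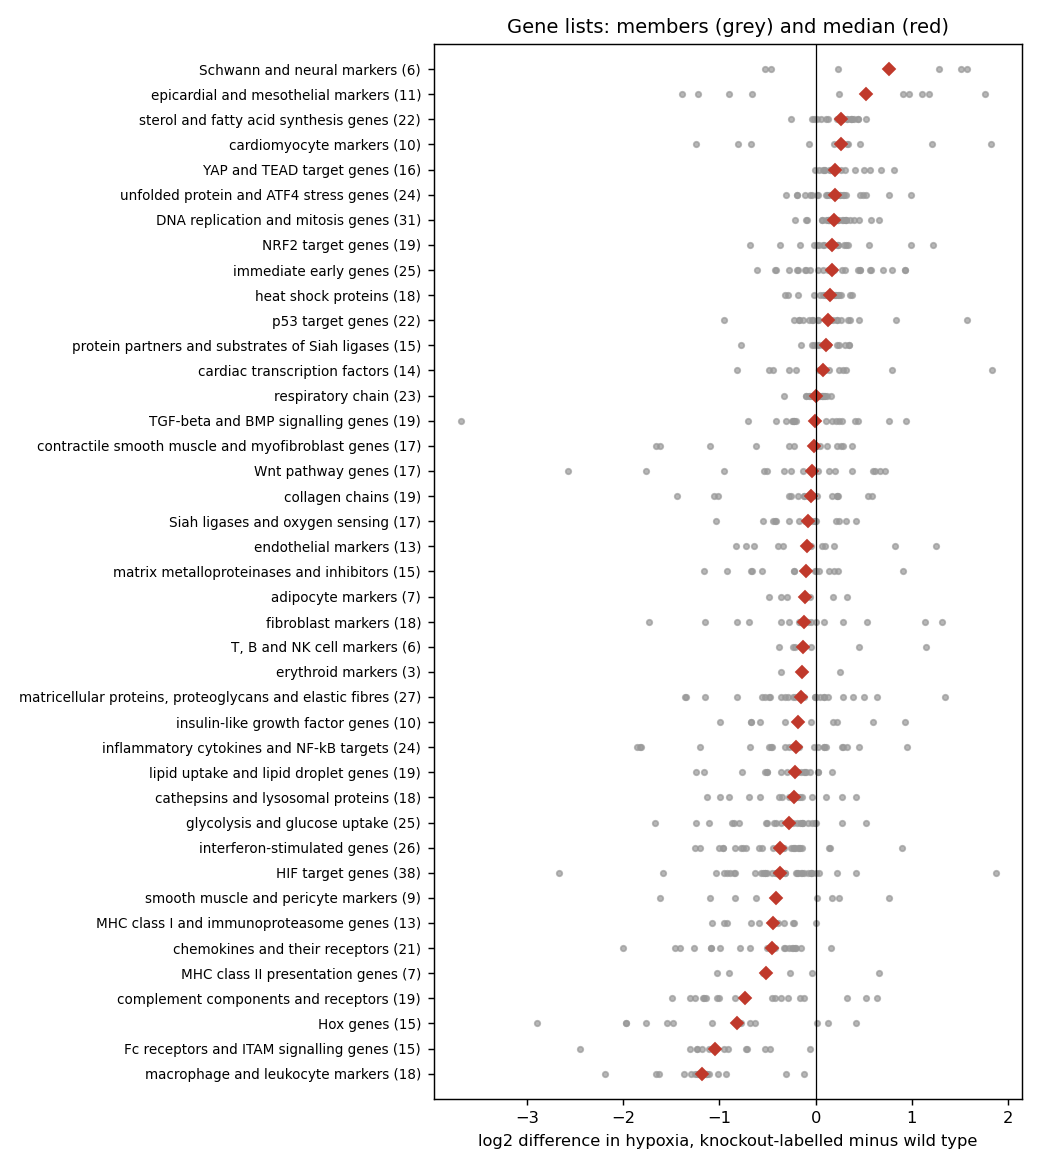
Log2 difference in hypoxia, knockout-labelled minus wild type (horizontal axis), for each measured member (grey) of the 41 gene lists, with the median of each list as a red diamond and the number of members in parentheses. The macrophage and leukocyte markers lie furthest left, at a median of -1.18, and the Schwann and neural markers furthest right, at 0.76.

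Fibroblast markers were bright in all samples: the mean log2 intensity over the list was 11.99 and 12.15 in knockout-labelled hypoxia, against 12.22 and 12.19 in wild type. Of the 18 markers 6 lay higher and 12 lower. Fap, a surface protease of activated fibroblasts, gave 6.21 and 6.53, against 8.37 and 7.83 (-1.73), and decorin, Dcn, gave 13.95 and 13.99, against 14.80 and 14.79 (-0.82). Thy1, a surface glycoprotein, gave 14.15 and 14.52, against 13.30 and 13.10 (1.14), and dermatopontin, Dpt, gave 7.43 and 7.86, against 6.53 and 6.13 (1.32). The markers split in direction, and the labelled cell type's defining genes were bright in every sample.

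Matrix genes were divided as well. Of 27 matricellular, proteoglycan and elastic fibre genes 10 lay higher and 17 lower, with a median of -0.16. Elastin, Eln, gave 5.54 and 6.05 in knockout-labelled hypoxia, against 4.40 and 4.50 in wild type (1.34), while Ltbp2, a latent TGF-beta binding protein of elastic fibres, gave 11.19 and 12.11, against 13.14 and 12.87 (-1.36). Of 19 collagen chains 12 lay lower, with Col6a3 at 9.11 and 9.80, against 10.46 and 10.48. Of 15 matrix proteases and inhibitors 9 lay lower, with Adamts4 at 8.33 and 8.28, against 9.22 and 9.72. In this list 4 lay lower (26.7%, against 3.78%) and 1 higher (6.67%, against 2.45%) at an unadjusted p under 0.05. The collagens had a median of -0.05, with 3 of 19 lower at an unadjusted p under 0.05 (15.8%, against 3.78%). These 3 include Col15a1, whose knockout-labelled mean of 3.25 lay under the filter level, against 4.69 in wild type. Its wild-type level helped it pass the filter, so the count is partly set by the filter. The other spot of Col15a1 gave a log2 difference of -0.29. The contractile genes had a median of -0.01 and a mean of -0.25, with 3 of 17 lower at an unadjusted p under 0.05 (17.6%). Members of both lists went both ways.

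Hox genes, which set regional identity, lay lower in 12 of 15 measured, and 8 of these had an unadjusted p under 0.05 (53.3%, against 3.78% of all autosomal genes). The knockout-labelled means of Hoxc6, Hoxb5, Hoxb6 and Hoxd9, at most 3.19, lay under the filter level of 3.39, so these members passed it through wild type, where they are high, and the counts and medians of the list are partly set by the filter. The median was -0.81 in hypoxia and -0.70 in normoxia. Hoxa5 gave 3.62 and 3.87 in knockout-labelled hypoxia, against 4.97 and 6.05 in wild type (-1.77), and Hoxb5 gave 3.30 and 2.69, against 5.09 and 4.85, a difference whose size is not resolved at the dim end. The mean log2 intensity of the list was 4.40 and 4.35, against 5.23 and 5.63, so these genes were dim. The medians of the 4 sample pairs lay between -0.84 and -1.34.

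Markers of macrophages and leukocytes lay lower in all 18 measured members (100% against 47.5% of all autosomal genes), the groups stood apart for 17 (94.4%, against 15.7%), and 5 had an unadjusted p under 0.05 (27.8%, against 3.78%). In bulk samples, fewer cells of a type and less RNA per cell cannot be told apart. The mean log2 intensity of the list was 11.46 and 10.55 in knockout-labelled hypoxia, against 11.94 and 12.42 in wild type, so these transcripts were bright in every sample of a culture labelled fibroblasts. Csf1r, the receptor for the macrophage growth factor Csf1, gave 11.88 and 12.68, against 13.94 and 13.88 (-1.63). C1qb, whose promoter is printed above, gave 12.38 and 11.52, against 12.94 and 13.47 (-1.25). Cx3cr1, the fractalkine receptor, gave 11.43 and 10.31, against 12.13 and 12.35 (-1.37). Cd163 and Lyve1 did not pass the filter on dim genes. The median of the list was -1.18 in hypoxia and -1.25 in normoxia, and it was -0.31 for the pair of samples numbered 1 and -2.00 for the pair numbered 2.

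Immune gene groups lay lower together with those markers, and the part of the markers in each was not tested. Fc receptor and ITAM signalling genes lay lower in 15 of 15, with a median of -1.05, and Trem2, a lipid receptor of macrophages, gave 11.95 and 11.02 in knockout-labelled hypoxia, against 12.61 and 12.97 in wild type. The Fc receptor median was -0.31 for the pair of samples numbered 1 and -1.85 for the pair numbered 2, and ran from -1.61 to -0.56 with a sample left out. Complement genes lay lower in 16 of 19, 8 of them at an unadjusted p under 0.05 (42.1%, against 3.78% of all autosomal genes), with a median of -0.74. The central component C3 gave 13.75 and 14.04, against 14.78 and 14.68 (-0.83). C1s1, a protease of the C1 complex, averaged 7.77 ± 0.32, against 8.78 ± 0.17 (SD, n = 2 each; log2 difference -1.01). The complement medians of the 4 sample pairs ran from -0.53 to -0.70, a narrower range than that of the macrophage list.

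Chemokines and their receptors lay lower in 20 of 21, with 7 at an unadjusted p under 0.05 (33.3%, against 3.78% of all autosomal genes) and a median of -0.45. Ccl4, a macrophage chemokine, gave 7.47 and 7.24 in knockout-labelled hypoxia, against 8.58 and 8.66 in wild type (-1.27), and Cxcl14 gave 9.20 and 9.61, against 10.72 and 10.08. Of the inflammatory cytokine list, with 15 of 24 lower, Tnf gave 4.76 and 4.73, against 6.42 and 6.70 (-1.81). Genes of MHC class I and the immunoproteasome lay lower in 12 of 13, with Psmb8 at 9.15 and 8.30, against 9.57 and 9.77. Interferon-stimulated genes lay lower in 23 of 26, with a median of -0.37. That median was 0.54 for the pair of samples numbered 1 and -1.60 for the pair numbered 2, and without knockout-labelled sample 2 it was 0.34, so its direction depended on that sample.

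**Figure D4:**
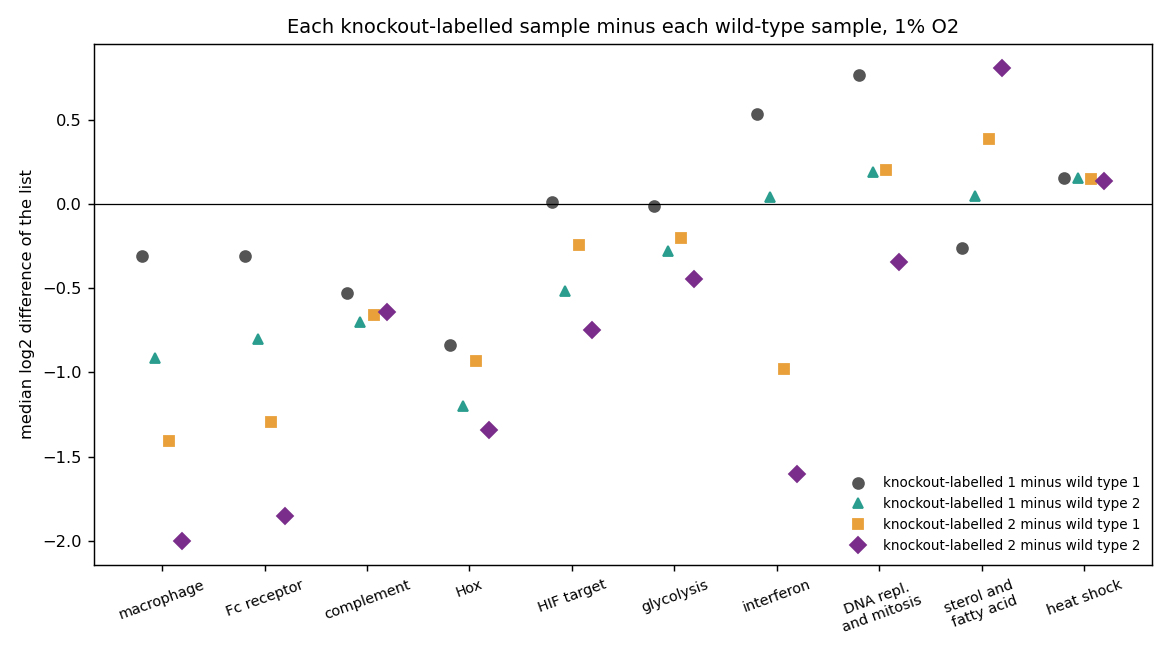
Median log2 difference of 10 gene lists (vertical axis) for each of the 4 pairs of a knockout-labelled and a wild-type hypoxia sample. Macrophage, Fc receptor, complement, Hox and glycolysis lists lie below 0 in all pairs and the heat shock list above, whereas HIF target, interferon, DNA replication and sterol lists change sign between pairs; the macrophage list spans -0.31 to -2.00.

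Markers of other cell types were mixed. Of 11 epicardial and mesothelial markers 7 lay higher, 3 of them at an unadjusted p under 0.05 (27.3%, against 2.45% of all autosomal genes). At such a p 1 marker lay lower (9.09%, against 3.78%). The 3 higher markers include Upk3b, which was chosen above for a small p. Gpm6a gave 7.10 and 6.38 in knockout-labelled hypoxia, against 4.64 and 5.31 in wild type (1.76), and mesothelin, Msln, gave 7.69 and 7.36, against 6.21 and 6.63 (1.11), while Krt18, a keratin, gave 6.08 and 5.76, against 7.47 and 7.14 (-1.38). Of the Schwann and neural markers, 6 of 10 passed the filter, and Sox10 and Foxd3 did not. Of these 6 markers 4 lay higher and 2 lower, with Mbp among the lower (-0.46). S100b, a calcium-binding protein of glia, gave 7.30 and 6.89, against 5.62 and 6.02. Ptprz1 is among the genes chosen above for a small p, and Ngfr passed the filter only through knockout-labelled cells, since its wild-type mean was 3.32. The troponin Tnnt2 gave 10.71 and 10.88, against 9.49 and 8.45 (1.82), while Myh6 and Myh7, the cardiomyocyte myosins, did not pass the filter. Of 10 measured cardiomyocyte markers 6 lay higher and 4 lower, with Myl3 among the lower (-0.80). Endomucin, Emcn, gave 9.48 and 8.83, against 7.95 and 7.86 (1.25). It was the only endothelial marker of 13 with an unadjusted p under 0.05 (7.69%, against 2.45% of all autosomal genes). Of these 13 markers 5 lay higher and 8 lower, with a median log2 difference of -0.09. Vwf, for example, lay lower (-0.64).

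Stress and growth lists leaned upward by small amounts. Over all autosomal genes 52.5% lay higher, 2.45% lay higher at an unadjusted p under 0.05, and the median was 0.02. Heat shock proteins lay higher in 14 of 18, with 0 at an unadjusted p under 0.05, and their median was between 0.14 and 0.15 in all 4 sample pairs. YAP and TEAD target genes lay higher in 15 of 16, with Ankrd1 at 14.80 and 15.37 in knockout-labelled hypoxia, against 14.73 and 13.81 in wild type; their median was 0.20, but -0.07 for the pair of samples numbered 1, and ran from 0.06 to 0.41 with a sample left out. DNA replication and mitosis genes lay higher in 28 of 31 and sterol and fatty acid synthesis genes in 19 of 22, with medians of 0.19 and 0.27 and 0 members at such a p. The replication and sterol medians changed sign with the sample left out: without knockout-labelled sample 1 the replication median was -0.06 and without wild-type sample 1 -0.10, and the sterol median was -0.15 without knockout-labelled sample 2. NRF2 target genes lay higher in 15 of 19, with a median of 0.17, and p53 target genes in 14 of 22, with a median of 0.13. Nqo1, a quinone reductase driven by NRF2, was the highest of its list, at 9.87 and 9.06, against 7.67 and 8.83 (1.22). Perp was the highest of the p53 list, at 7.40 and 6.83, against 5.06 and 6.02 (1.57). The lowest were Gsta4 in the NRF2 list (-0.68) and Sesn1 in the p53 list (-0.95).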

How the data were processed

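The authors deposited a table of 8 samples by 62976 spots, read as log2 intensities from their range of 2.13 to 16.0. All columns had a median of 3.94; the sources used here do not give how they were normalized. The submitters' processing notes list limma, version not given. Spots were named through the platform annotation, updated with RefSeq (GRCm38.p6): 43941 had 1 gene, 0 several and 19035 none. The dimmest 30% of genes by mean were removed, which left 17014.

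The fit used the values as deposited, in limma 3.58.1 with R 4.3.3 (lmFit and eBayes on 4 group means, with 4 residual and 2.25 prior degrees of freedom), with Benjamini-Hochberg adjustment over all 17014 genes and calls at an adjusted p under 0.05. SE is the moderated standard error. Named genes were the Siah genes, the 14 in each direction described in the text, up to 4 members of each list with the smallest p, and the 5 genes on either side of Siah2 and Siah1a. The members and lists were chosen with earlier results of these data known; lists are described by counts and medians, with no set test. The fit was tested on simulated data.

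Same-numbered knockout-labelled and wild-type hypoxia samples deviated in opposite directions (r = -0.32), so the numbers were not taken to pair samples. Across genotypes, with normoxia included, these correlations ran from -0.26 to -0.38. Hypoxia pairs of unlike number lay closest, with a median size of the difference of 0.275 and 0.260. Pairs of like number are therefore the less alike ones where list medians are given by pair. Alternatives covered normalization, filters, spot choice, variance models, sample weights, the samples fitted, the replicate block and each sample left out. The number of arrays limits the precision.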

Additional observations from a re-analysis of the deposited data

Results flagged for a closer look

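Over all autosomal genes, groups stood apart as higher for 16.3% in hypoxia and 16.6% in normoxia, and as lower for 15.7% and 15%. The share that stood apart in opposite directions was not counted, so the next count has no background beside it. Among the 196 tested genes that the named-gene rule covers, the genotype groups stood apart in opposite directions in hypoxia and in normoxia for 4. None passed limma's test of the difference over all genes (adjusted p = 1.00 for each). Egln1, a prolyl hydroxylase that marks HIF, gave 12.50 and 12.33 in knockout-labelled hypoxia, against 12.56 and 13.08 in wild type, and 12.10 and 11.94 in knockout-labelled normoxia, against 11.88 and 11.89 in wild type; the difference between the conditions was -0.54 (SE 0.32). Lcn2, lipocalin 2, differed between the conditions by -0.68 (SE 0.32), and Higd1b, a pericyte marker near the dim end, by 1.11 (SE 0.48). Abcc12, a transporter gene near Siah1a, gave 3.40 and 4.65 in knockout-labelled hypoxia, against 5.35 and 4.72 in wild type, and 4.31 and 4.10 in knockout-labelled normoxia, against 3.80 and 3.93 in wild type; its difference was -1.35 (SE 0.61).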

How the results depend on the processing

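The 28 named genes kept their sign under every alternative run, including each sample left out, though the mean over spots moved the size of 8 of them by over 1.5 times, as given above. The count of 0 called autosomal genes in hypoxia held under all alternatives that left out no hypoxia sample. Leaving out a sample gave 0 to 7 calls in hypoxia and 0 to 7 for the difference between conditions, with 0 to 0 in normoxia; the calls came from the lone sample left in a group, which is assumed to vary like the other groups: 7 genes without knockout-labelled hypoxia replicate 2 (Gm32947, log2 difference 8.59), Plxna4os1 without wild-type replicate 1, and Vmn2r16 and Zfp872 without wild-type replicate 2. In normoxia 2 genes, Cd36 and Folr2, were called with the dimmest 50% of genes removed (adjusted p = 0.0430 in limma). The genes at an unadjusted p under 0.05 in hypoxia numbered 816 to 1041 with a sample left out and 888 with the replicate block, which called 0. With crossed replicate numbers as a block, chosen after seeing the data, they numbered 2066, with 0 called. The share of these genes that lay higher was 39.3%, and 48.3% without knockout-labelled replicate 2. With a sample left out, list medians ran from -0.57 to -0.12 for HIF targets, -0.38 to -0.11 for glycolysis, -1.73 to -0.61 for macrophage markers and -1.18 to -0.81 for Hox genes.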

Other observations

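Insulin-like growth factor genes, which act on fibroblast growth, were divided. Igf1 gave 12.34 and 11.97 in knockout-labelled hypoxia, against 12.81 and 12.65 in wild type, and the binding protein Igfbp3 gave 9.01 and 9.45, against 9.81 and 10.01. Igfbp2 lay the other way, at 14.02 and 13.40, against 12.57 and 12.99. The Wnt list was divided too, with 8 of 17 measured members higher, 9 lower and a median log2 difference of -0.04. Among its lower members, Wnt4 gave 5.15 and 4.05, against 6.71 and 7.63 (log2 difference -2.57). Rspo3, an enhancer of Wnt signalling, also lower, gave 5.52 and 4.39, against 6.42 and 7.03. Of 14 measured cardiac transcription factors 9 lay higher and 5 lower, with a median of 0.07. Mef2c, a muscle transcription factor among the lower ones, gave 8.45 and 7.90, against 9.07 and 8.91. The groups did not overlap for any gene named in this paragraph, and none was called.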
